A study of Danio rerio with 6 samples.

Results

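Endothelial cells that overexpressed hhex were compared with those of sibling embryos across 11888 genes, those with a mean normalized value of at least 50 over the 4 libraries of this comparison, out of 31701 genes in the table. The study sorted endothelial cells from zebrafish embryos of the AB strain at 48 hours post fertilization and sequenced their RNA in 6 libraries, 2 per group, of which the 2 sibling and the 2 overexpression libraries entered here and the 2 hhex mutant libraries did not. All embryos carried Tg(kdrl:EGFP)s843, which labels endothelial cells with EGFP. The overexpression embryos also carried Tg(fli1a:tdTomato-2A-hhex)bns136, in which the fli1a promoter drives tdTomato together with hhex, and their cells were sorted as positive for both EGFP and tdTomato, whereas sibling cells were sorted as positive for EGFP alone. The siblings, called wild type in the labels, were chosen by the presence of parachordal lymphangioblasts and may carry the hhex s722 allele on 1 chromosome. The transgene, the second fluorophore and the sorting gate therefore differ together between the groups, and their parts cannot be told apart. The labels do not say that the 2 libraries of a group came from separate clutches, so that the p-values measure the spread between these libraries, which may be technical.

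Hhex is a homeodomain transcription factor expressed from the earliest endothelial and blood precursors, and it can repress or activate its target genes. In the zebrafish trunk, blood stem cells arise from endothelial cells of the dorsal aorta, known as hemogenic endothelium, at the stage sampled here. In the head, growing vessels acquire the transporters of the blood-brain barrier at about the same stage, a process that depends on canonical Wnt signalling. The description below goes beyond the lymphatic, venous and tip cell markers and asks which other genes separated the groups.

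Depth was alike in the 4 libraries, between 19651603 and 23615228 reads on genes as recovered from the steps between low values, and ribosomal RNA took between 32.4% and 35.6% of the values. A value of 1 stands for between 0.945 and 1.23 reads, so that values below about 10 rest on few reads. Markers of several cell types differed between the libraries. All 10 endothelial markers of the list (fli1a, erg, tie1 and others) were above both siblings in each overexpression library, beside 30.6% of the 11888 genes. None of the 10 passed the test (limma, adjusted p under 0.05). Their summed value was 15688 and 26127 in the siblings against 37097 and 32124 in the overexpression libraries. The lysozyme gene lyz, a myeloid marker, was at 1496 and 1951 in the siblings, at 41 in overexpression 1 and at 2948 in overexpression 2. Fewer cells of a type and less RNA per cell cannot be told apart in such bulk samples.

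hhex itself, located in GRCz10 on chromosome 12 from 47695602 to 47699931 on the minus strand, was at 204 and 279 in the siblings and at 764 and 925 in the overexpression libraries. The groups did not overlap, and the mean was 3.50 times higher with overexpression, a log2 fold change of 1.81 ± 0.23 (SE), with adjusted p = 0.0067 (limma, Benjamini-Hochberg over 21019 genes). Reads of the transgene and of the endogenous gene are not separated in this value. When the libraries were rescaled to the endothelial markers, the difference was 0.98 and no longer passed the test (adjusted p = 0.15, in a range of 0.00041 to 0.24 over the alternatives), and without overexpression 1 it was 1.95 with adjusted p = 0.061.

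Of the 11888 genes, 764 passed the test at an adjusted p of 0.05, a background of 6.43%, with 347 genes higher (2.92%) and 417 lower (3.51%) in overexpressing cells. In all 764 the 2 groups did not overlap. Groups that did not overlap were common, however, with 3642 genes (30.6%) higher and 3875 genes (32.6%) lower, and an exact permutation test of 1 gene cannot go below p = 0.333 with 2 libraries against 2. Over all 21019 genes tested, with a mean of at least 5, 822 genes passed (3.91%), 382 higher (1.82%) and 440 lower (2.09%), and 4845 had an unadjusted p under 0.05. These calls depended on the model: limma with all 6 libraries in one fit called 0 genes (3151 at an unadjusted p under 0.05), and limma without the mean trend and robust estimation also called 0 (3531 at an unadjusted p under 0.05). Rescaling to the endothelial markers moved the median of all genes from 0.03 to -0.79 on the log2 scale and gave 54 higher and 2322 lower genes. Leaving out 1 library at a time left 240 calls without sibling 1, 1872 without sibling 2, 40 without overexpression 1 and 400 without overexpression 2.

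**Figure D1:**
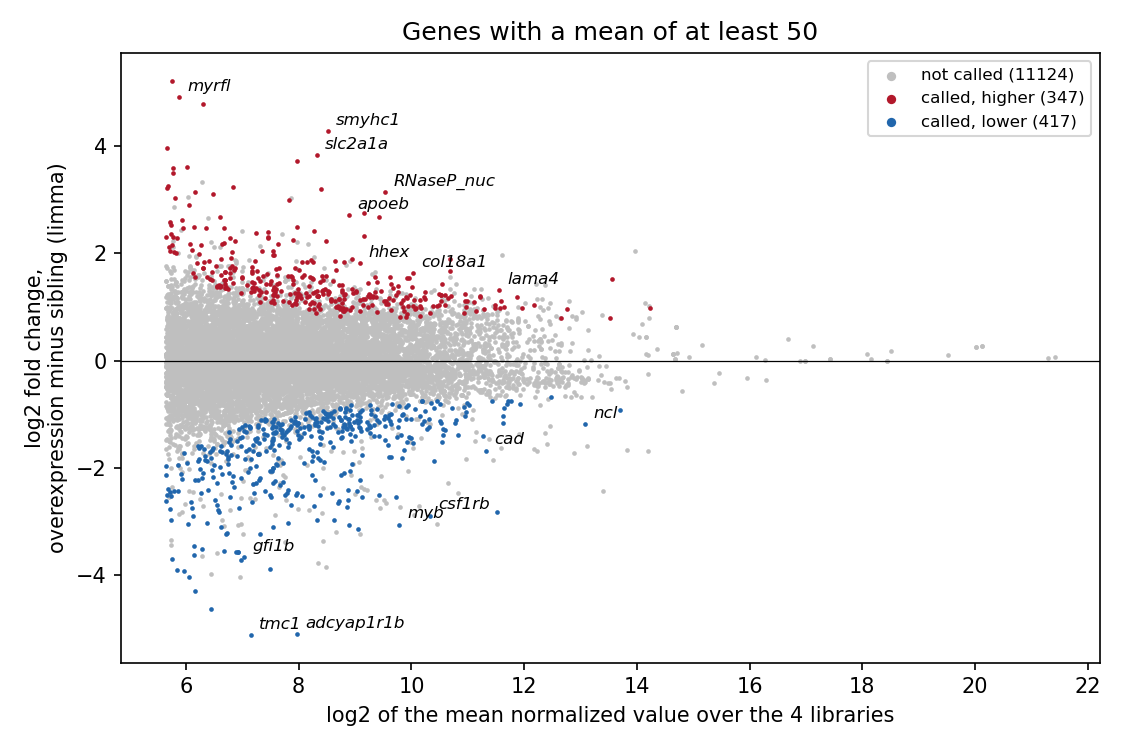
Log2 fold change of overexpression over sibling (vertical axis) against log2 of the mean normalized value over the 4 libraries (horizontal axis) for the 11888 genes, each gene a point. The 347 called rises are red, the 417 called falls blue and the uncalled genes grey. A call also depends on the spread between replicates, so that called and uncalled genes overlap in the size of the change. tmc1, at -5.11, lies at the lower edge.

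The called falls and rises were of like size at the median and the extreme, but more falls than rises were at least 4-fold. Rescaling to the endothelial markers acted on them in opposite ways. The called falls reached -5.11 with a median of -1.43, and 112 of them were at least 4-fold, while the called rises reached 5.21 with a median of 1.33, and 60 of them were at least 4-fold. All 417 falls remained called after rescaling to the endothelial markers, but this could hardly come out otherwise. The rescaling moved the median of all genes from 0.03 to -0.79 on the log2 scale and so deepened falls. Of the 347 rises, 343 stayed above 0 and 29 stayed called after that rescaling. The same shift lowered rises by construction. Standard errors could grow as well, from 0.23 to 0.47 for hhex and from 0.20 to 0.44 for col18a1. A rise that lost its call after the rescaling therefore says little about endothelial content. The library order also recurred. Sibling 1 had the lower endothelial marker sum of the siblings. It lay below sibling 2 in 255 of the 347 rises and above it in 321 of the 417 falls. Overexpression 1 had the higher sum of its group. It lay above overexpression 2 in 264 of the rises and below it in 333 of the falls. These orders were not counted over all genes, so that they cannot be called particular to the called genes. The part of endothelial content in the rises was not tested.

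**Figure D2:**
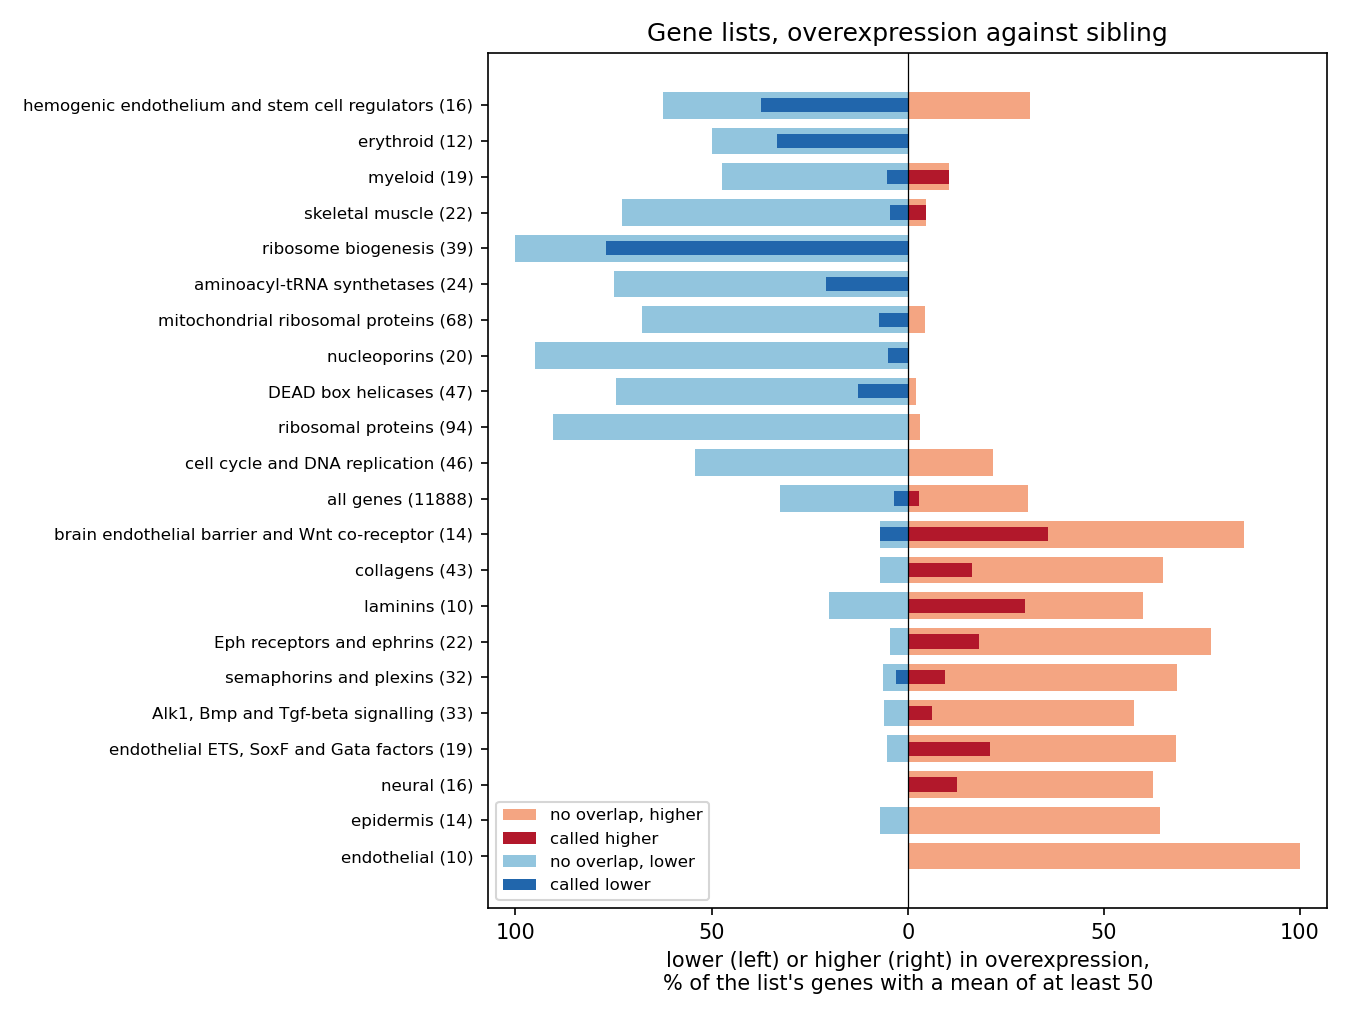
Share of the genes of each list (number of genes with a mean of at least 50 in brackets) that were lower (left, blue) or higher (right, red) in overexpressing cells, in percent. Light bars give genes whose groups did not overlap and dark bars genes called at an adjusted p of 0.05; ribosome biogenesis stands at 39 of 39 lower without overlap and 30 called, beside 32.6% and 3.51% over all genes.

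Regulators of blood-forming cells were among the falls. Among 21 tested regulators of hemogenic endothelium and blood stem cells, 8 fell and none rose (limma, adjusted p under 0.05; 15 of the 21 had a negative log2 fold change), beside 2.09% of all genes tested called lower, with a list median of -1.38 beside 0.03 over all genes tested. The list median was -0.95 without sibling 1 and -0.78 without overexpression 1. The 8 were gfi1b, myb, gata2b, itga2b, runx1, CBFA2T3, meis1b and cbfb, of which itga2b and runx1 lay under the mean of 50. myb, the transcription factor required for definitive blood stem cells, was at 1836 and 1270 in the siblings and at 127 and 262 in the overexpression libraries, a log2 fold change of -3.06 ± 0.34 (adjusted p = 0.0077). gata2b, which acts upstream of runx1 in the hemogenic endothelium of zebrafish, was at 76 and 114 in the siblings and at 11 and 11 with overexpression (-2.97 ± 0.48, adjusted p = 0.017). runx1, the factor needed for blood stem cells to leave the aortic wall, was at 87 and 75 against 11 and 14 (-2.61 ± 0.47, adjusted p = 0.022). In each of these genes both overexpression libraries lay below both siblings by more than the distance between replicates.

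gfi1b, a zinc finger repressor of erythroid and thrombocyte development, was at 321 and 165 in the siblings and at 13 and 23 in the overexpression libraries (-3.66 ± 0.45, adjusted p = 0.0065). CBFA2T3, a corepressor of blood progenitors, was at 1166 and 721 against 306 and 395. cbfb, the partner of Runx1, was at 1705 and 1142 against 354 and 673, and the homeobox gene meis1b at 2495 and 2651 against 1497 and 1495, the smallest of the 8 falls at -0.78 ± 0.17. These 2 genes were chosen after their values were seen. itga2b, the integrin subunit of thrombocytes and young stem cells also known as CD41, was at 88 and 40 in the siblings and at 0 and 2 with overexpression, values too low for a fold.

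Not all stem cell regulators took part. tal1 was at 370 and 351 against 225 and 288 (adjusted p = 0.21), lmo2 at 403 and 423 against 384 and 380 (adjusted p = 0.78) and gata2a at 344 and 494 against 678 and 586 (adjusted p = 0.15). Both tal1 and lmo2 are factors of early blood and endothelial precursors, and gata2a is expressed widely in endothelium. None of the 3 passed the test in limma.

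**Figure D3:**
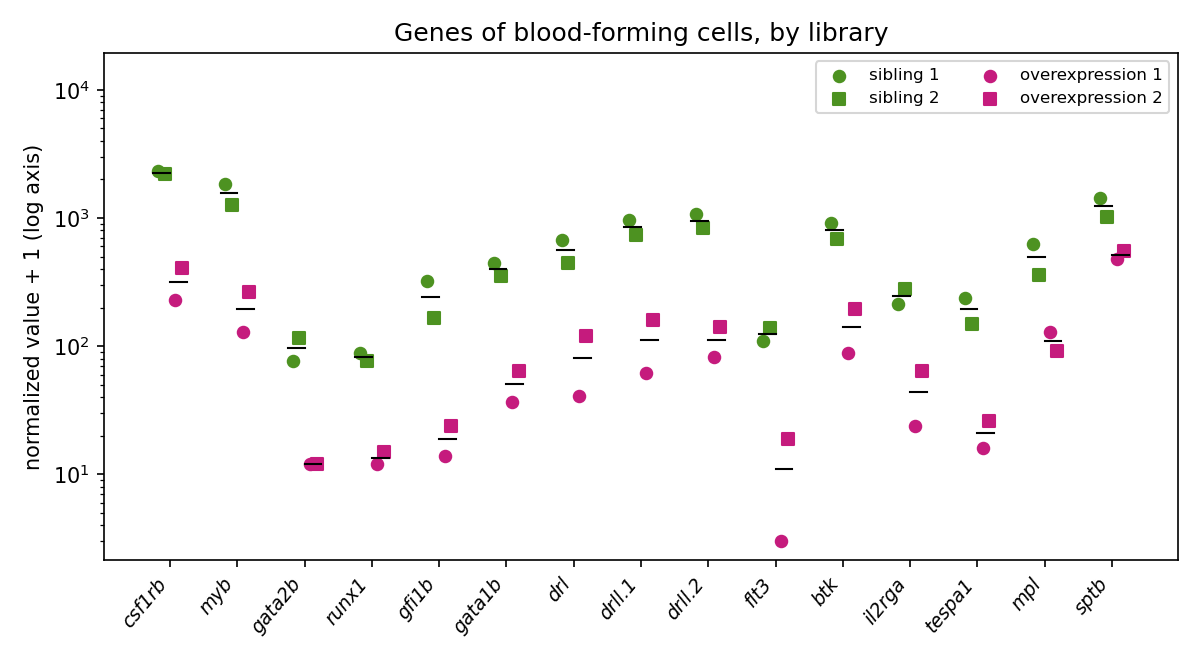
Normalized value plus 1 (log axis) of 15 genes of blood-forming cells in the sibling libraries (green, circle and square) and the overexpression libraries (magenta, circle and square), with the mean of each group as a line. All 15 were picked among the called falls, so that both overexpression libraries lie below both siblings by that choice. They run from csf1rb at 2312 and 2187 against 228 and 403 to flt3 at 109 and 137 against 2 and 18.

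Single receptors and signalling genes known from blood progenitors and leukocytes were also among the falls, named here as single genes and not as a list. csf1rb, a receptor tyrosine kinase of the Csf1 receptor family, was at 2312 and 2187 in the siblings and at 228 and 403 in the overexpression libraries (-2.89 ± 0.26, adjusted p = 0.0021). flt3, a cytokine receptor of hematopoietic progenitors, was at 109 and 137 against 2 and 18 (-4.03 ± 0.80, adjusted p = 0.034). mpl, the thrombopoietin receptor, was at 623 and 359 against 128 and 90, and epor, the erythropoietin receptor, at 272 and 173 against 39 and 66. Among the leukocyte genes, il2rga, the shared gamma chain of interleukin receptors, was at 214 and 277 against 23 and 63. It was the 1 fall, with no rise, among 39 tested interleukins and their receptors. That share is near the 2.09% of all genes tested called lower. The tyrosine kinase gene btk was at 920 and 682 against 88 and 194, and tespa1, known from T cell receptor signalling in mouse, at 237 and 149 against 15 and 25. cxcr4b was at 623 and 384 against 176 and 155. It was the 1 fall, with 2 rises, among 31 chemokines and their receptors, beside 2.09% and 1.82% of all genes tested. nuggc.1, a GTPase gene, was at 133 and 79 against 2 and 15. All of these passed the test, and csf1rb, epor and btk were named after their values were seen.

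The draculin genes, zinc finger genes of the lateral plate mesoderm and its blood derivatives, formed a block of neighbours that fell together. drl was at 668 and 447 in the siblings and at 40 and 119 in the overexpression libraries (-2.96 ± 0.50, adjusted p = 0.031). drll.1 was at 958 and 731 against 61 and 160, and drll.2 at 1074 and 830 against 81 and 140 (-3.07 and -3.14). These genes lie on chromosome 5 between 60930942 and 60967534 in overlapping models on the same strand. Reads on more than 1 of them were left out by the authors' counting, so that each value is uncertain by itself. gata1b, a close relative of the erythroid master regulator gata1a, was at 441 and 352 against 36 and 63 (-3.02 ± 0.32, adjusted p = 0.0033). drl and gata1b were also named after their values were seen.

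Among the markers of mature blood cells, the erythroid list had 4 falls and no rise in 17 tested genes, beside 2.09% called lower of all genes, with a median of -0.87 that was -1.42 without sibling 2. The 4 were the membrane skeleton genes sptb (1440 and 1017 against 478 and 552) and epb41b (285 and 308 against 138 and 71), the transferrin receptor gene tfr1a (178 and 111 against 40 and 32) and the anion exchanger gene slc4a1a (259 and 221 against 73 and 116). No globin gene passed the test, and hbae3 was at 1589 and 996 against 1289 and 963. The summed erythroid list was at 12064 and 7843 in the siblings and at 6011 and 5103 with overexpression. The thrombocyte list of 8 genes had 2 falls, itga2b and mpl. The myeloid list had 1 fall and 2 rises in 31 tested genes, beside 2.09% and 1.82% of all genes tested. The 2 rises were the overlapping genes mfap4 and MFAP4. The list median was -0.75, which relative to all genes became 0.46 without overexpression 1. The summed list was at 13286 and 13352 in the siblings, 2350 in overexpression 1 and 12464 in overexpression 2. The part of admixed blood cells in these falls was not tested. Rescaling to the endothelial markers deepens falls, so that a fall staying called after it says little. Of the 25 blood genes named here, 6 were called without sibling 1, 20 without sibling 2, 5 without overexpression 1 (drll.2, drll.1, myb, gata1b and csf1rb) and 16 without overexpression 2. In the same order the stem cell list held 2, 7, 2 and 8 falls, with 2 rises without sibling 2, and the erythroid list 0, 4, 1 and 1 falls, and all 25 genes were called after rescaling to the endothelial markers.

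The largest named falls among the 11888 genes, those of tmc1 and adcyap1r1b, were in genes of other kinds. The falls of flt3 and nuggc.1, described above, came next among the named genes. tmc1, which encodes a channel subunit of mechanosensory hair cells and lies on chromosome 5 from 25052574 to 25068556, was at 324 and 230 in the siblings and at 8 and 6 in the overexpression libraries (-5.11 ± 0.43, adjusted p = 0.0015). adcyap1r1b, a receptor of the neuropeptide PACAP, was at 725 and 257 against 7 and 19 (-5.10 ± 0.59, adjusted p = 0.0085). edaradd, the adaptor of the ectodysplasin receptor, was at 227 and 241 against 13 and 22 (-3.71 ± 0.39, adjusted p = 0.0030). In tmc1 and edaradd the gap between the groups was larger than the distance between replicates, whereas in adcyap1r1b the siblings differed from each other by more than that gap on the linear scale.

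Several falls were in receptors and signalling proteins. ptger4b, a receptor of prostaglandin E2, was at 202 and 170 against 8 and 27, and s1pr5b, a receptor of sphingosine 1-phosphate, at 186 and 165 against 13 and 29. plxnc1, a semaphorin receptor, was at 524 and 492 against 89 and 221. pdk2b, a kinase that inhibits pyruvate dehydrogenase, was at 297 and 88 against 18 and 15, and fam78ab was at 123 and 131 against 5 and 22. Their log2 fold changes lay between -3.55 (ptger4b) and -1.85 (plxnc1). Of these 8 falls, 3 were called without sibling 1, 7 without sibling 2, 3 without overexpression 1 (tmc1, adcyap1r1b and edaradd) and 7 without overexpression 2.

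The most uniform group of falls was ribosome biogenesis, the nucleolar machinery that transcribes and processes ribosomal RNA and assembles ribosomal subunits. In all 39 tested genes of this list each overexpression library lay below both siblings, and 30 of them passed the test (limma, adjusted p under 0.05). The list median was -1.11, and the summed list was at 49167 and 44658 in the siblings and at 20620 and 24366 in the overexpression libraries. Beside these, 32.6% of all genes were lower without overlap and 3.51% were called lower.

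ncl, which encodes the nucleolar protein nucleolin, was at 13063 and 10884 in the siblings and at 4758 and 5772 in the overexpression libraries (-1.19 ± 0.18, adjusted p = 0.014). mybbp1a, a nucleolar regulator of ribosomal RNA synthesis, was at 1739 and 1375 against 513 and 553 (-1.54 ± 0.20, adjusted p = 0.0075). The largest fall of the list was that of polr1b, a core subunit of RNA polymerase I, at 266 and 211 against 43 and 83 (-1.97 ± 0.35), and the largest subunit, polr1a, was at 802 and 760 against 289 and 338 (-1.32 ± 0.20). Processing factors of the small subunit were of like size, with heatr1 at 916 and 810 against 341 and 388, utp3 at 508 and 468 against 191 and 194, and wdr43 at 1648 and 1569 against 765 and 657. The smallest difference was that of utp18, at 349 and 345 against 216 and 286 (-0.48 ± 0.23, adjusted p = 0.24). polr1b was named after its values were seen. The number of called genes of this list was 6 without sibling 1, 27 without sibling 2, 0 without overexpression 1 and 6 without overexpression 2, whereas all 39 log2 fold changes stayed negative in each, and the list median lay between -1.22 and -0.96.

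**Figure D4:**
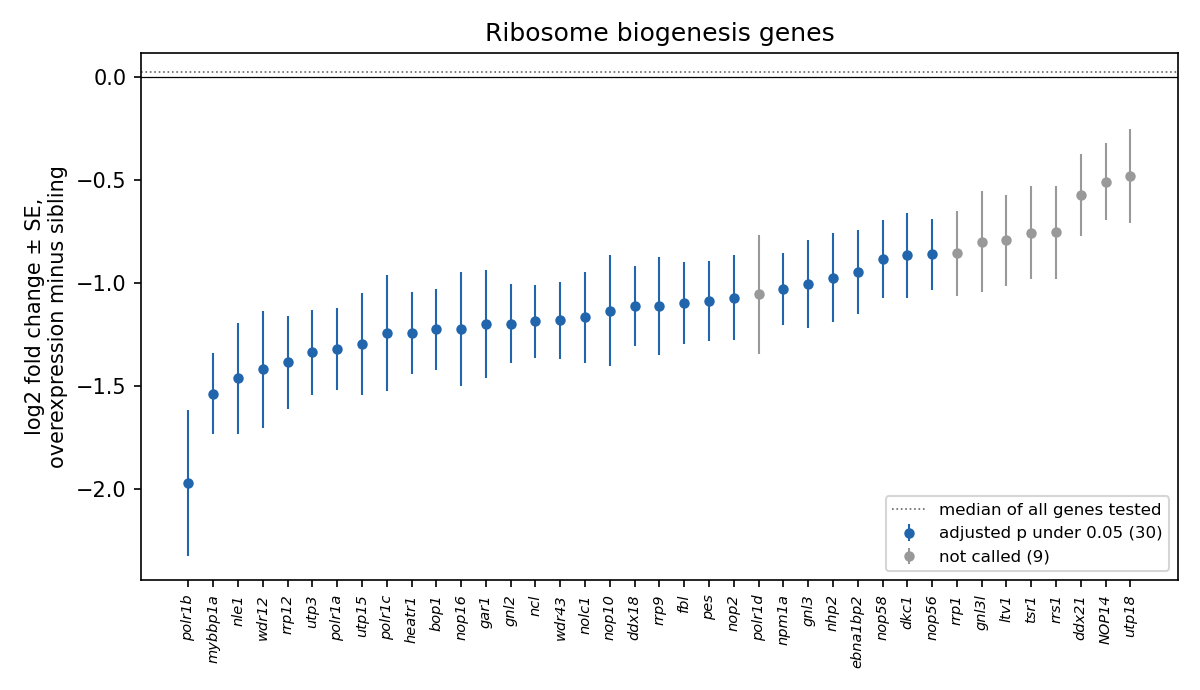
Log2 fold change with its standard error (limma) of the 39 ribosome biogenesis genes, in rising order, in blue where the adjusted p was under 0.05 (30 genes) and in grey otherwise (9 genes). All lie below 0, from polr1b at -1.97 to utp18 at -0.48, while the median of all genes tested (dotted line) is 0.03.

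Other lists of the translation machinery had fewer calls, to be read beside the 2.09% of all genes tested that were called lower. Of 30 aminoacyl-tRNA synthetases, the enzymes that load tRNAs with amino acids, 5 fell and none rose, 28 had a negative log2 fold change, and the list median was -0.72. mars, the methionyl-tRNA synthetase gene, was at 958 and 814 in the siblings and at 313 and 382 in the overexpression libraries (-1.35 ± 0.21, adjusted p = 0.015), and the others called were nars, yars, kars and iars, between -1.17 and -0.84. Of 75 mitochondrial ribosomal protein genes, 5 fell and none rose with a list median of -0.61, led by mrpl12 at 464 and 353 against 159 and 188. The other 4 were mrps2, mrpl3, mrpl48 and mrpl18.

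The same 2.09% is the background for the helicases, chaperones and nucleoporins. The list of 52 RNA helicases named ddx (DEAD box) or dhx (DEAH box), many of which act in ribosome assembly, had a median of -0.43. Of these, 6 fell and none rose. They were ddx18, ddx27, ddx56, ddx31, ddx24 and ddx43, and ddx18, which is also in the ribosome biogenesis list, was at 992 and 850 against 428 and 421. Among 82 heat shock and DnaJ genes the falls were 3, a share near that background, namely hspd1, hspa9 and hspa14, the first 2 of which encode the mitochondrial chaperones Hsp60 and mortalin. hspd1 was at 2590 and 1769 against 695 and 961 (-1.39 ± 0.24, adjusted p = 0.020). Of 20 nucleoporins 1 fell, and 19 were lower without overlap, beside 32.6% of all genes, with a list median of -0.56.

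Nucleotide synthesis genes, chosen after their values were seen, lay with these. cad, the enzyme of the first steps of pyrimidine synthesis, was at 3982 and 3832 in the siblings and at 1112 and 1338 in the overexpression libraries (-1.68 ± 0.18, adjusted p = 0.0033). impdh2, the rate-limiting enzyme of guanine nucleotide synthesis, was at 290 and 194 against 68 and 73, and hprt1, of purine salvage, at 294 and 242 against 67 and 113. The groups of each did not overlap, which follows from the choice of called falls.

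The cytosolic ribosomal protein genes themselves differed less. None of 101 passed the test, although 85 of the 94 with a mean of at least 50 were lower without overlap, beside 32.6% of all genes, with a list median of -0.36. None of 100 nuclear genes of the respiratory chain passed (list median -0.30), and none of 48 genes of the cell cycle and DNA replication passed (list median -0.30), with 25 of 46 lower and 10 of 46 higher without overlap, beside 32.6% and 30.6% of all genes. Of the 22 translation, helicase, chaperone and nucleotide genes named as called, 2 were called without sibling 1, 19 without sibling 2, 0 without overexpression 1 and 5 without overexpression 2.

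Transporters and Wnt pathway genes of brain endothelium were among the rises. In a list of 18 genes of the brain endothelial barrier and its Wnt co-receptors, 5 rose and 1 fell (limma, adjusted p under 0.05), beside 1.82% and 2.09% of all genes tested, and 12 of the 14 with a mean of at least 50 were higher without overlap, beside 30.6% of all genes. The list median was 1.02, and 0.19 after rescaling to the endothelial markers, against -0.79 for all genes. Its rises numbered 1 after that rescaling, 0 without sibling 1, 5 without sibling 2, 0 without overexpression 1 and 6 without overexpression 2.

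slc2a1a, which encodes the glucose transporter Glut1 that marks barrier endothelium and lies on chromosome 23 from 22273916 to 22286084, was at 41 and 33 in the siblings and at 877 and 325 in the overexpression libraries. Its mean was 16.2 times higher, a log2 fold change of 3.82 ± 0.44 (adjusted p = 0.0069), and 2.99 after the rescaling. SLC3A2, a heavy chain gene of amino acid transporters, was at 16 and 24 against 287 and 130 (3.24 ± 0.46, adjusted p = 0.011), and slc7a5, the light chain gene Lat1, at 206 and 184 against 776 and 385 (1.48 ± 0.31, adjusted p = 0.038). A second heavy chain gene, slc3a2b, was the list's 1 fall, at 680 and 500 against 256 and 285 (-1.11 ± 0.22, adjusted p = 0.030). The 2 overexpression libraries differed by more than 2-fold from each other in slc2a1a, SLC3A2 and slc7a5, with overexpression 1 the higher, but both lay above both siblings.

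Single efflux and organic anion transporter genes rose. Of 356 tested solute carriers named slc, without the slco genes, 9 rose and 7 fell. These shares are near the 1.82% and 2.09% of all genes tested. abcb4, a multidrug efflux pump gene of the P-glycoprotein family, was at 173 and 203 in the siblings and at 882 and 518 in the overexpression libraries (1.85 ± 0.27, adjusted p = 0.012). The organic anion transporter genes slco1d1 and slco1c1, chosen after their values were seen, were at 32 and 66 against 571 and 241, and at 66 and 85 against 579 and 222. Of 46 ABC transporters 5 rose and none fell, beside 1.82% of all genes called higher, namely abcb4, abca4a, abcc2, abca1a and abcg2a, while the list median was 0.04, so that the rises were those of single members. abcg2a, an efflux pump, was at 332 and 613 against 1341 and 992, and the lipid exporter gene abca1a at 1647 and 2509 against 4223 and 3763. SLC47A1, a cation and drug efflux transporter, was at 7 and 13 against 157 and 46 (3.03 ± 0.65, adjusted p = 0.035). apoeb, an apolipoprotein E gene, was at 126 and 123 against 842 and 799 (2.71 ± 0.21, adjusted p = 0.0010), with the replicates of each group closer than in most rises.

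Single targets and feedback genes of canonical Wnt signalling lay among these rises, named as single genes because no list of such targets was counted. lef1, a transcription factor of the pathway, was at 319 and 324 in the siblings and at 1217 and 742 in the overexpression libraries (1.56 ± 0.25, adjusted p = 0.016), and axin2, a feedback inhibitor, at 223 and 308 against 574 and 583 (1.14 ± 0.22, adjusted p = 0.028). nkd1, another feedback inhibitor, was at 464 and 533 against 1518 and 1363 (1.53 ± 0.19, adjusted p = 0.0067) and nkd2a at 126 and 208 against 457 and 331 (1.26 ± 0.29, adjusted p = 0.044), both chosen after their values were seen. dkk1a, a secreted Wnt antagonist, was at 14 and 5 against 117 and 68. In each, both overexpression libraries lay above both siblings, which follows from the choice of called rises.

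Of 33 tested ligands, Frizzled receptors and secreted antagonists of the Wnt pathway, 3 rose and 1 fell, beside 1.82% and 2.09% of all genes. The list median of 0.74 became -0.09 after rescaling to the endothelial markers, against -0.79 for all genes. The receptor gene fzd10, under the mean of 50, was at 9 and 11 against 79 and 76, and the ligand gene wnt11r at 53 and 69 against 144 and 165. The ligand gene wnt9b was at 263 and 289 against 111 and 108 (-1.32 ± 0.24, adjusted p = 0.022). foxf2a and foxf2b, forkhead factors of brain pericytes and endothelium, were at 63 and 76 against 242 and 193 and at 11 and 19 against 118 and 66. Of the 23 transporter, Wnt and related genes named, 8 were called after the rescaling (slc2a1a, SLC3A2, SLC47A1, slco1d1, dkk1a and apoeb as rises, slc3a2b and wnt9b as falls). Without sibling 1, sibling 2, overexpression 1 and overexpression 2, 6, 20, 1 (apoeb) and 11 of them were called.

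**Figure D5:**
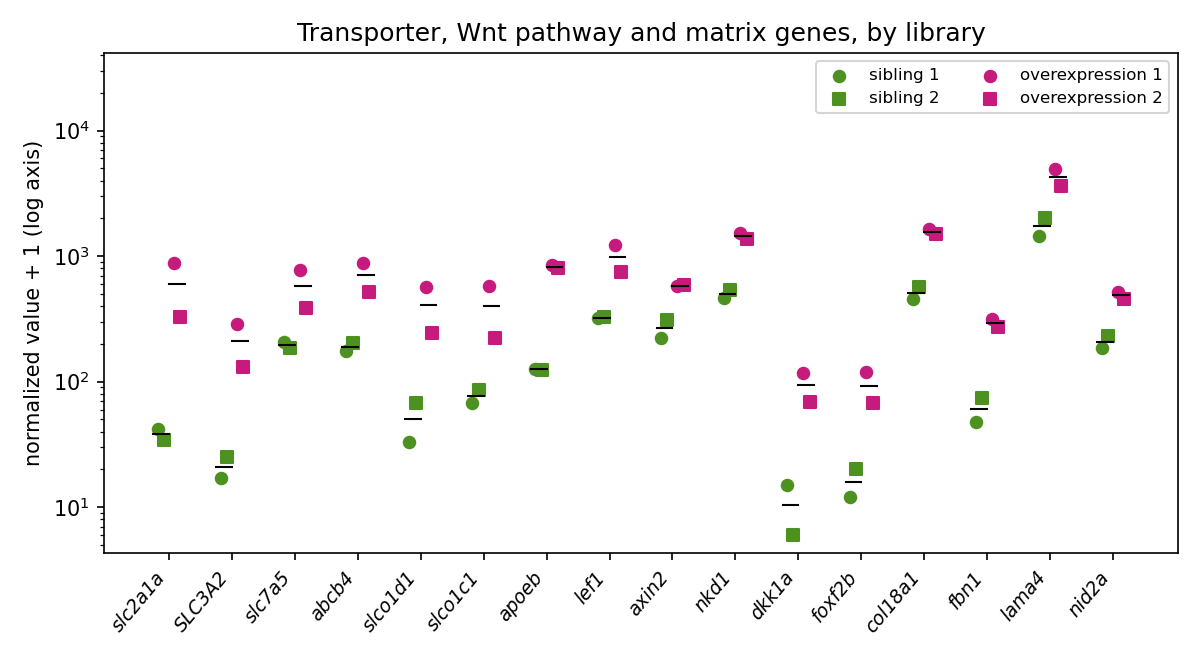
Normalized value plus 1 (log axis) of 16 transporter, Wnt pathway and matrix genes in the sibling libraries (green, circle and square) and the overexpression libraries (magenta, circle and square), with the mean of each group as a line. All 16 were picked among the called rises, so that both overexpression libraries lie above both siblings by that choice. Replicates are close in apoeb (842 and 799) and far apart in slc2a1a (877 and 325).

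Genes of the vascular basement membrane and extracellular matrix formed a second group of rises. Of 59 tested collagen genes, 7 rose and none fell, beside 1.82% of all genes called higher. Of the 43 with a mean of at least 50, 28 were higher without overlap, beside 30.6% of all genes. The list median was 0.84, and 0.02 after rescaling to the endothelial markers, against -0.79 for all genes. col18a1, whose product is a basement membrane collagen of vessels, was at 454 and 563 in the siblings and at 1631 and 1501 in the overexpression libraries (1.63 ± 0.20, adjusted p = 0.0061). col4a2, a chain of the main basement membrane collagen, was at 1703 and 3021 against 5577 and 4740, and col4a5 at 207 and 110 against 375 and 513. The fibrillar and anchoring collagen genes col2a1b, col12a1a and col7a1 also rose, by 1.41, 1.29 and 2.15 on the log2 scale, and these are known from cartilage, connective tissue and skin rather than endothelium.

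Of 14 laminin genes 3 rose and none fell, beside the same 1.82%. The list median of 0.46 became -0.35 after the rescaling, against -0.79 for all genes. It was 0.26 without sibling 2 and 0.94 without overexpression 2. lama4, the laminin chain typical of vessels, was at 1446 and 1999 against 4938 and 3601 (1.31 ± 0.22, adjusted p = 0.019), lamb1b at 808 and 1228 against 2628 and 1996, and lamc1 at 1687 and 2638 against 4606 and 3839. Other matrix genes, chosen after their values were seen, were fbn1, a fibrillin gene, at 47 and 73 against 312 and 273, and nid2a, a nidogen gene, at 184 and 228 against 519 and 454. frem1b, a basement membrane protein gene of skin, was at 471 and 1010 against 2726 and 2411. The collagen list held 12, 10, 0 and 2 rises without sibling 1, sibling 2, overexpression 1 and overexpression 2. Of the 12 matrix genes named 0 were called after rescaling to the endothelial markers, and 7, 12, 0 and 3 were called in these 4 settings.

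Single endothelial signalling genes and transcription factors rose, and the counts of the following lists stand beside 1.82% of all genes tested that were called higher. Of 42 tested genes of Alk1, Bmp and Tgf-beta signalling 3 rose and none fell. Of the 33 with a mean of at least 50, 19 were higher and 2 lower without overlap, beside 30.6% and 32.6% of all genes. The list median of 0.45 became -0.37 after the rescaling, against -0.79 for all genes. acvrl1, which encodes the endothelial Bmp receptor Alk1, was at 443 and 551 in the siblings and at 1850 and 1105 in the overexpression libraries (1.53 ± 0.26, adjusted p = 0.020). Its target id1 was at 465 and 718 against 1287 and 1235, and the ligand gene bmp4, just under the mean of 50, at 6 and 17 against 103 and 64. Only bmp4 of the genes named in the signalling and factor groups was called after the rescaling.

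Of 20 endothelial transcription factors of the list, 4 rose and none fell, beside 1.82% of all genes, and hhex is 1 of the 4. Of the 19 with a mean of at least 50, 13 were higher and 1 lower without overlap, beside 30.6% and 32.6% of all genes. The list median of 0.54 became -0.30 after the rescaling, against -0.79 for all genes, and was 0.28 without sibling 1. etv2, the factor that starts the endothelial program, was at 532 and 677 against 1516 and 1287 (1.22 ± 0.20, adjusted p = 0.019). The forkhead genes foxo1a and foxc1a were at 331 and 406 against 893 and 627, and at 189 and 230 against 400 and 413. mecom, a zinc finger factor of stem cells and arterial endothelium chosen after its values were seen, was at 258 and 352 against 759 and 712, and so moved against the stem cell regulators above.

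Guidance and junction genes had few called rises, with 1.82% of all genes called higher as background. More members with a mean of at least 50 were higher without overlap, beside 30.6% of all genes. These were 17 of 22 Eph receptors and ephrins, 22 of 32 semaphorins and plexins and 25 of 31 junction genes. For the Notch list it was 13 of 25. In the same order 1, 2, 0 and 2 members were lower without overlap, beside 32.6%. The median of all genes tested became -0.79 after the rescaling, and the rescaled list medians below stand beside that value. Of 30 Eph receptors and ephrins 4 rose and none fell, with a list median of 0.70 that became -0.13 after the rescaling, and 3 of the 4 were the ephrin-A ligand genes efna1a (343 and 352 against 918 and 650), EFNA4 (96 and 75 against 234 and 203) and efna3b (48 and 54 against 138 and 133). Of 45 semaphorins and plexins 3 rose and 1, plxnc1, fell, with a list median of 0.68 that became -0.16. The rises were sema3fb at 114 and 126 against 442 and 339, plxnb3 at 520 and 660 against 1404 and 1254, and sema5ba at 27 and 14 against 157 and 83. Of 37 junction and surface protein genes 2 rose, thsd1 at 629 and 746 against 1546 and 1252 and the laminin gene lama4 described above. The list median of 0.78 became -0.05. Of 25 Notch pathway genes 1, lfng, rose and none fell, with a list median of 0.26 that became -0.58.

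Immediate early and stress genes, which respond within minutes to handling and to many signals, had 3 rises and no fall among 36 tested genes, beside 1.82% of all genes called higher. The 3 were fosab (1746 and 1972 against 4261 and 3396), atf3 (926 and 1437 against 3148 and 2353) and ppp1r15a (986 and 999 against 2576 and 1587). The list median of 0.64 became -0.19 after the rescaling, against -0.79 for all genes. The part of handling during the sort was not tested. Of the 17 signalling, factor, guidance and stress genes named as called, lfng aside, 2, 16, 0 and 4 were called without sibling 1, sibling 2, overexpression 1 and overexpression 2.

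The remaining large rises came from genes of low level in the siblings. myrfl, a gene related to myelin regulatory factor, was at 2 and 2 in the siblings and at 41 and 191 in the overexpression libraries, and f10, which encodes coagulation factor X, at 9 and 2 against 118 and 188. fmn1, a formin gene of actin assembly, was at 5 and 11 against 94 and 109, gulp1b, an adaptor gene of cell engulfment, at 6 and 13 against 103 and 80, and adgrl1a, an adhesion receptor gene of the latrophilin family, at 19 and 13 against 237 and 86. trim35-10 was at 6 and 28 against 152 and 101. These 6 genes reached a mean of 50 only through the overexpression libraries, so that a difference follows from that choice and is given as a description. Their log2 fold changes lay between 3.10 and 4.90 on the log2(value + 1) scale. That scale understates the change of genes so low in the siblings. The same holds for slc2a1a, SLC3A2, SLC47A1, slco1d1, dkk1a, foxf2b, abca4a, col7a1, sema5ba, smyhc1, tnnc1b, mfap4 and MFAP4, with sibling means below 50. Among the 11888 genes, falls with overexpression means below 50, tmc1 and adcyap1r1b among them, reached a mean of 50 only through the siblings.

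Beside 1.82% of all genes tested, the myeloid list had only 2 genes called higher. They are overlapping genes of the mfap4 family, used as macrophage markers in zebrafish. The 22 names of that list matched 34 gene entries, so that repeated names weigh more in its counts and median. mfap4 was at 12 and 4 against 54 and 149. A gene named MFAP4, which overlaps it on the same strand of chromosome 1, was at 14 and 4 against 60 and 182. Reads on both genes were left out by the authors' counting, so that both values are uncertain. The macrophage genes mpeg1.2 and csf1ra were at 223 and 218 against 130 and 175 and at 11 and 25 against 23 and 80, neither of which passed the test.

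A noncoding RNA was among the best separated rises. RNaseP_nuc, a gene of the RNA subunit of nuclear ribonuclease P that trims the 5′ ends of tRNAs, on chromosome 2 from 42737320 to 42737617, was at 169 and 135 in the siblings and at 1419 and 1251 in the overexpression libraries (3.13 ± 0.21, adjusted p = 0.00096). A second gene of that name was at 89 and 105 against 546 and 495 (2.41, adjusted p = 0.0021), whereas the most abundant one was at 9361 and 11829 against 9698 and 10034 (adjusted p = 0.79). Of these 9 rises, RNaseP_nuc counted once, all 9 were called after rescaling to the endothelial markers, and 7, 9, 1 (RNaseP_nuc) and 2 were called without sibling 1, sibling 2, overexpression 1 and overexpression 2.

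Muscle genes, which a sort of endothelial cells should leave out, moved in both directions. Of the 22 skeletal muscle markers, 16 were lower without overlap, beside 32.6% of all genes, with a list median of -1.44. Without overexpression 1 the median was -0.67 with 0 called falls, and without overexpression 2 it was -2.07 with 16. In the test of all 4 libraries only desma was called lower, at 300 and 171 in the siblings and 69 and 88 in the overexpression libraries. The summed list was at 78043 and 44825 in the siblings against 14044 and 36340. By contrast, the slow muscle myosin gene smyhc1 was at 45 and 26 in the siblings and at 546 and 846 in the overexpression libraries (4.27 ± 0.34, adjusted p = 0.0011), the only marker of the list called higher. smyhc2, a second slow myosin gene chosen after its values were seen, was at 83 and 65 against 345 and 504, and tnnc1b, a slow muscle and heart troponin gene, at 11 and 2 against 76 and 113. smyhc1 and smyhc2 overlap on the same strand of chromosome 24, and reads on both were left out by the authors' counting. All 4 called muscle genes were called after rescaling to the endothelial markers, and 3, 4, 2 and 2 were called without sibling 1, sibling 2, overexpression 1 and overexpression 2.

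Markers of epidermis and nervous system were also higher with overexpression. The 19 epidermal genes had a list median of 0.90 and the 21 neural genes one of 0.76. Of these, 0 and 2 were called higher, beside 1.82% of all genes tested. Both medians came close to 0 after rescaling to the endothelial markers (0.06 and -0.08), against -0.79 for all genes. The epidermal list was sensitive to the sibling libraries, with 6 called rises and a larger median without sibling 1, and 1 called rise and a median of 0.38 without sibling 2. The summed epidermal list was at 21219 and 22873 in the siblings against 37651 and 33499, and the neural one at 5449 and 4895 against 9239 and 7895. Cadherins and claudins, families with members in endothelium, epidermis and nervous system alike, had list medians of 0.78 and 0.88. These became -0.05 and 0.09, beside the same -0.79. In these families 1 of 89 and 0 of 25 genes were called higher, beside 1.82% of all genes tested, and none lower. The part of such cells in the collagen, Wnt and guidance rises was not tested.

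At the lower end of the chosen genes, 15 genes had a mean of exactly 50 and lay inside, and 21 genes with a mean of 49.75 lay just outside.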

How the data were processed

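Normalized read numbers of 4 libraries, 2 from sibling and 2 from hhex overexpression embryos, were analysed, with groups and replicate numbers taken from the sample labels and columns matched by name. Per the paper's methods, RNA was made into libraries with a stranded total RNA kit from small inputs, and the authors trimmed reads with Reaper, aligned them with STAR (2.4.0a) to GRCz10 with the Ensembl annotation, counted reads with featureCounts (1.4.5-p1) without those on several genes or places, and normalized them with DESeq2. The strand setting of the counting is not given in the sources used here, so that overlapping and antisense genes (31 of the 128 genes named as called) are uncertain. Each deposited value is a signal, which the authors made by dividing read numbers by 1 size factor per library and rounding. They are not raw counts, and no count model was used.

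The 21019 genes whose 4 libraries averaged 5 or more were tested with limma (3.58.1, R 4.3.3) on log2(value + 1), with trended and robust empirical Bayes moderation, two-sided, with Benjamini-Hochberg adjustment over all genes and a threshold of 0.05. The median total degrees of freedom were 9.82. The error of each difference, given as its SE, covers counting error and replicate spread. The 11888 genes described are those with a mean of at least 50. hhex, the 15 largest called rises and falls with a usable symbol outside the lymphatic, venous, tip cell and endothelial genes of the study, and the up to 6 members of smallest p in each list described were named by rule (1 of these genes is not reported here), and 20 other genes were chosen after their values were seen. Genes named without a call, such as tal1 and lmo2, are not among these. The genes and lists were chosen with earlier results of these data known. Lists are described by counts and medians beside those of all genes. Symbols were matched by gene identifier to a name table, which gave hhex its name. Alternatives were other filters, pseudocounts (0.1 and 5), scalings, thresholds and libraries, a voom fit on rebuilt reads, and a replicate block. No sequences are shown because none was read from the files used here.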

Additional observations from a re-analysis of the deposited data

Results flagged for a closer look

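Of the genes with the largest rises and hhex, 3 were above both siblings also in both hhex mutant libraries, which the comparison did not use. hhex was at 613 and 1157 in hhex mutant replicates 1 and 2, above the siblings at 204 and 279. RNaseP_nuc was at 268 and 1070 in the 2 mutant libraries, above the siblings at 169 and 135, and f10 at 16 and 39, above the siblings at 9 and 2. The mutant libraries were not compared with the siblings by a test here.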

How the results depend on the processing

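The 128 genes named as called, lfng aside and RNaseP_nuc counted once, kept their direction under every alternative run in which they were tested. Genes named without a call, such as lyz and tal1, are not among the 128. The list medians relative to that of all genes also kept their direction, with 2 exceptions. These were the myeloid list (from -1.69 without overexpression 2 to 0.46 without overexpression 1) and the ABC transporters (-0.062 without sibling 2 and -0.013 without overexpression 1, up to 0.14 without overexpression 2). Calls were less stable, and the cause was not tested. The count of called genes, higher and lower, was 0 (0 and 0) with all 6 libraries in one fit and 0 (0 and 0) without trend and robust estimation. It was 1270 (639 and 631) without a filter, 554 (222 and 332) with a mean of at least 50, 2167 (1113 and 1054) at an adjusted p of 0.1 and 2376 (54 and 2322) after rescaling to the endothelial markers. Genes that did not overlap then numbered 468 higher and 8329 lower. Without 1 library the count lay between 40 and 1872, the higher between 12 and 1292 and the lower between 28 and 580. Of the 128 genes, 84 were called after that rescaling, 118 with voom, 12 without overexpression 1, 55 without overexpression 2, 41 without sibling 1 and 115 without sibling 2. A replicate block gave 206 calls (68 and 138), including 50 of the 128. The replicate 1 minus replicate 2 differences of the 2 groups correlated at -0.11 across genes. That value cannot show whether equal replicate numbers shared a batch, which the labels do not say. A block that crossed the numbers, added after seeing the data, gave 2494 calls (1348 and 1146). Pseudocounts, quantile and median-of-ratios scaling left the counts within 1.5 times. Values below about 10 rest on few reads. Among the falls this limits itga2b, flt3, tmc1, adcyap1r1b, nuggc.1, fam78ab, ptger4b and ddx43. Among the rises it limits myrfl, f10, fmn1, gulp1b, trim35-10, dkk1a, SLC47A1, mfap4, MFAP4, tnnc1b, bmp4 and fzd10.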
